A study of Rattus norvegicus with 4 samples.

Results

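The genes of the rat proteasome were described in NR8383, a macrophage line that was started from the lung lavage of a normal rat and is used as a model of the alveolar macrophage. A gene was taken as a proteasome gene when its RefSeq symbol was Psm, then a letter from a to g, then a number. RefSeq holds 48 such symbols, and 45 of them had a probe on the array through its accession, among 16581 genes that could be named in this way. The 45 genes were read by 48 of 21109 named probes. Psmb11, which is made in the thymic cortex, and the assembly chaperones Psmg1 and Psmg3 were not paired with a probe and were not analysed here. Psmc3ip and Psme3ip1, whose symbols go on after the number, are not subunits and were left out.

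All 4 arrays carried RNA of 1 group. The cells, labelled with 20 passages and grown in flasks, had been given zinc iron oxide (the particle NRCWE021, ZnFe2O4) at 17 µg/mL for 4 h, and each array held 1 biological replicate. The study was set up to compare such cells with cells kept without the particle. Arrays of cells without it were not analysed here, so each value below describes exposed cells, and none can be read as a response to the particle. Total RNA of a whole culture was labelled, so that fewer cells of a type and less RNA per cell cannot be told apart.

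The proteasome is the protease that breaks down proteins tagged with ubiquitin. Its barrel-shaped core is built of alpha rings, which gate the entry, and beta rings, which hold the cutting sites, and a cap of a base and a lid recognises, unfolds and feeds in the substrate. In macrophages and other cells exposed to interferon, 3 beta subunits are exchanged for immunoproteasome subunits, which favours peptides suited to presentation on class I molecules, and other activators may sit on the core in place of the cap.

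The arrays differed in the signal of dim spots. The scanner software called 47.0, 89.5, 70.5 and 41.6% of 58717 gene spots well above background on replicates 1 to 4, and their processed signals had medians of 13.5, 542, 133 and 7.37 intensity units. Replicates 2 and 3 stood apart in that dim probes were raised there, with 8 and 5 of 11 quality measures out of range against 2 on each of the others. Results are therefore given with and without replicates 2 and 3. Of 10 macrophage markers, 8 were called on each of the 4 arrays. Marco was called on replicates 2 and 3 only, and Adgre1 was not called on any array. Over all named genes, 42.4% were called on all 4 arrays, 45.9% on replicates 1 and 4, and 74.6% on replicates 2 and 3. Of 28 markers of other cell types, 7 were called on all 4 arrays, 7 on replicates 1 and 4, and 20 on replicates 2 and 3. The 7 were 3 of 4 endothelial markers (Pecam1, Cdh5 and Vwf), 1 of 5 of T and NK cells, 1 of 2 of B cells, 1 of 5 of fibroblasts and 1 of 4 of neutrophils and mast cells, with 0 of 8 epithelial markers. Vwf stood at a mean level of 1.17 ± 0.27 (SD, n = 4). A called marker does not show that cells of that type were present in a culture of this line. The source of these calls, and its part in the proteasome values, was not tested.

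A detection call means that the software's flag was set for at least 1 probe of the gene. A level is the log2 of the processed signal minus the array's 75th percentile, taken over 12899 probes well above background on all arrays. Levels compare a gene with itself across arrays. They do not rank genes, because probes differ in how strongly they bind.

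Nearly the whole set was detected. Of the 44 genes with a usable spot on every array, 43 were well above background on all 4, where 42.4% of 16526 named genes were. The count was 43 on replicates 1 and 4, where 45.9% of named genes were called, and 43 on replicates 2 and 3, where 74.6% were. The count was also 43 with the flag for a positive and significant signal, which held for 59.8% of named genes, with at least 3 arrays (49.7%) and with the brightest probe alone (41.8%). With every probe required it was 42 (36.3%), the gene lost being Psmg4. Leaving out replicates 1, 2, 3 and 4 in turn left 43, where named genes stood at 42.7, 42.6, 45.0 and 46.7%. On replicate 1 alone it was 44 (52.2%), and on replicates 2, 3 and 4 alone it was 43 (91.5, 75.3 and 46.2%).

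All 14 constitutive core subunits were called on all 4 arrays, as were the 3 immunoproteasome subunits, the 16 cap subunits with a value, the 5 activators and inhibitor and the 5 assembly factors. No group was separated from another by this measure.

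A second limit was set at the dimmest spike-in probe of the same array plus 3 SD of its spots. On replicates 2 and 3 it was stricter than the detection flag, with 24.3 and 32.8% of named genes passing against 91.5 and 75.3%. On replicates 1 and 4 it was looser, with 63.4 and 53.5% passing against 52.2 and 46.2%. On all 4 arrays it was passed by 37 of 44 proteasome genes and by 18.9% of named genes. The core kept 13 of 14 genes, without Psma3, and the immunoproteasome kept 3 of 3. Among cap subunits 14 of 16 passed, without Psmc6 and Psmd14. The assembly factors kept 3 of 5, without Psmg2 and Psmd5, and the activators and inhibitor 4 of 5, without Psme4. On replicates 1 and 4 every gene of these groups passed, but there the limit was looser than the flag. The losses lay on replicates 2 and 3, where the limit itself was raised.

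Psma8, the alpha subunit of the testis proteasome, was the exception. Its signal was 17.9, 22.8, 12.4 and 3.75 units on replicates 1 to 4, and it was well above background on replicate 1 alone. On replicates 2 and 3 the spot was not significantly above background at all. Only 2.46% of gene spots on replicate 2, and 10.1% on replicate 3, shared that state, and their signals lay between 18.6 and 24.4 units and between 11.2 and 18.1 units. Psma8 was therefore at the floor on the array with the most detected genes, where 91.5% of named genes were called. The plot of processed signals shows this gene apart from the others on every array.

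**Figure D1:**
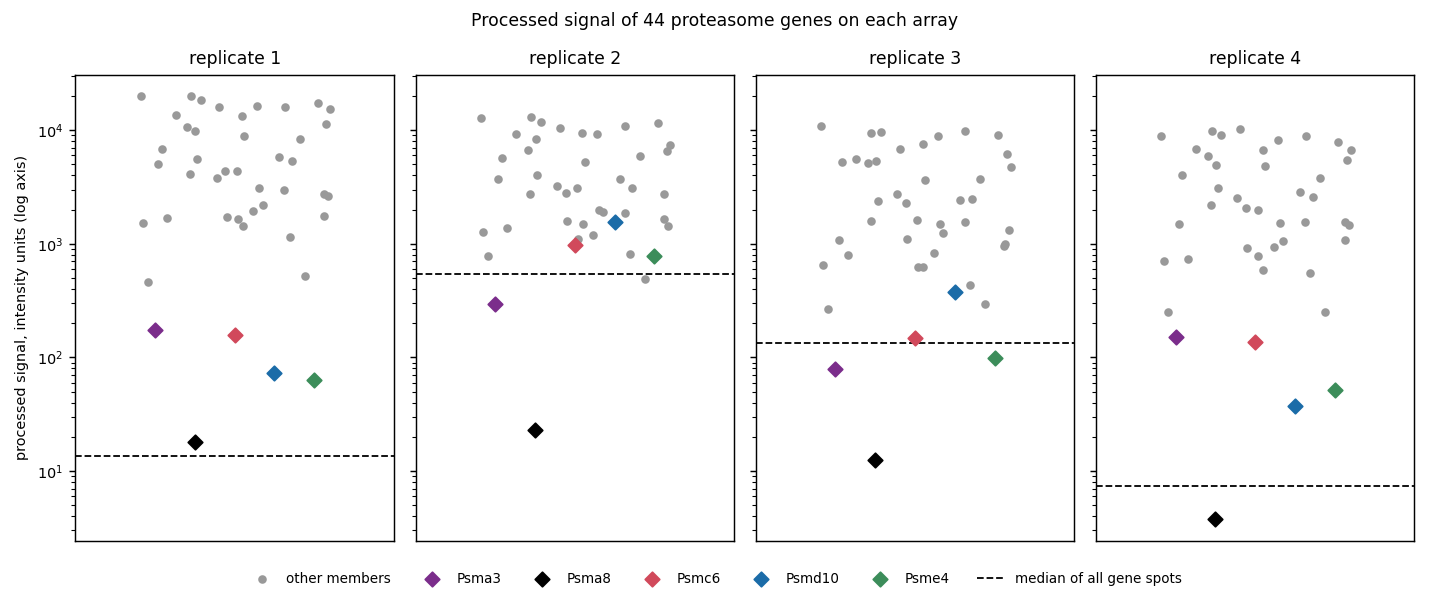
Processed signal of 44 proteasome genes in intensity units on a log axis, 1 panel per array, 1 point per gene, with 5 dim genes in colour and the median of all gene spots as a dashed line; the horizontal position only spreads the points. Psma8 lies at 22.8 on replicate 2 and 12.4 on replicate 3, far under the array medians of 542 and 133, while Psmd10 moves from 72.8 and 37.5 on replicates 1 and 4 to 1550 and 377 on replicates 2 and 3.

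The alpha ring was measured in full. Mean levels of its 7 genes ran from -2.90 for Psma3 to 3.15 for Psma6, and SDs over the 4 arrays ran from 0.18 for Psma2 to 0.49 for Psma3. Psma3, a subunit of that ring, read 173, 295, 78.6 and 152 units, or levels of -3.27, -2.50, -3.37 and -2.46. Its values on replicates 2 and 4 stood above those on replicates 1 and 3. On replicates 2 and 3 it was under the spike-in limit and under the median of all gene spots. The order of its levels therefore cannot show whether it followed the split of the arrays by dim signal. Psma6 stood at 3.27, 2.64, 3.07 and 3.62, lowest on replicate 2. Psma7 was printed in 10 spots per array and stood at 2.32, 1.81, 2.18 and 2.17. The SD among its spots within an array was 0.08 to 0.19, and that between arrays was 0.22.

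The 7 beta ring genes were all lowest on replicate 2. Psmb5, the chymotrypsin-like cutting subunit, stood at 3.00, 2.50, 3.23 and 3.00 (mean 2.93 ± 0.31, SD, n = 4). Psmb6, the caspase-like subunit, stood at 3.46, 2.83, 3.57 and 3.43 (3.32 ± 0.33). Psmb7, the trypsin-like subunit, stood at 1.67, 0.88, 1.62 and 1.63 (1.45 ± 0.38). For all 3 the arrays other than replicate 2 were close together, and replicate 2 lay 0.50, 0.63 and 0.79 log2 units under replicate 1. The other beta genes, Psmb1 to Psmb4, had SDs from 0.35 to 0.39, and the difference between replicates 1 and 4 in the ring ran from -0.40 for Psmb1 to 0.18 for Psmb3. Both probes of Psmb6 were detected on all arrays, with differences between replicates 1 and 2 of 0.63 and 0.49.

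The promoters of 2 of the cutting subunits are shown because each holds a short antioxidant response element, TGACNNNGC, the motif bound by the Cap'n'collar factors that drive proteasome genes in many cells. The match is in capitals, 5′ to 3′ on the gene's strand, from the RefSeq promoter table of assembly GRCr8. That of Psmb5 is at chr15:32047401-32047499 on the minus strand, with the match at positions -60 to -52 from the gene's start, and that of Psmb6 is at chr10:55737804-55737887 on the plus strand, with the match at -24 to -16.
Psmb5: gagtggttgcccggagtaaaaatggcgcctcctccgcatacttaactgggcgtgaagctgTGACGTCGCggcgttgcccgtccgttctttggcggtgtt
Psmb6: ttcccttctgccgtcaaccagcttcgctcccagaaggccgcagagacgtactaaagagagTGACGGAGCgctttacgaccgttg

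The motif was found on either strand in 8 of 43 proteasome promoters (18.6%), those of Psma3, Psmb2, Psmb5, Psmb6, Psmd1, Psmd3, Psmd9 and Psme4. Over all 33469 promoter windows of 300 bases the share was 12.1%. A match of this kind is a description of the letters.

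The immunoproteasome genes were each well above background on all 4 arrays and above the spike-in limit on all 4. Psmb8, which takes the place of Psmb5, read 9740, 8280, 5380 and 4930 units, or levels of 2.54, 2.31, 2.73 and 2.55 (2.53 ± 0.17, SD, n = 4). Psmb9, which replaces Psmb6, stood at 1.38, 0.73, 1.49 and 1.31 (1.23 ± 0.34). Psmb10, which replaces Psmb7, stood at 2.01, 1.78, 2.69 and 2.25 (2.18 ± 0.39). In all 3 genes replicate 2 was lowest and replicate 3 highest. Replicates 1 and 4 differed by -0.01, 0.07 and -0.24 log2 units, which is within the spread over all named genes, whose 10th and 90th percentiles for that difference were -0.45 and 0.37. The constitutive counterparts differed by -0.01, 0.03 and 0.04 on the same pair of arrays.

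On the RefSeq gene map Psmb8 and Psmb9 lie on either side of Tap1, a subunit of the transporter that carries peptides to class I molecules. Psme1 and Psme2 are separated by 1 coding gene, Emc9, and Psmb5 is next to Psmb11. Tap1 itself read 214, 776, 329 and 105 units and was well above background on all 4 arrays.

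Promoters of 3 interferon-linked genes are shown because each holds the core of an interferon-stimulated response element, spelled GAAA, any 2 bases, then GAAA, and searched on both strands. The Psmb8 stretch is at chr20:4657026-4657095 on the minus strand, and its match, read here as the reverse complement, runs from position -4 to 6 bases past the start. The Psmb10 stretch at chr19:50743293-50743425, minus strand, holds 2 matches between positions -73 and -8. The Psme2 stretch at chr15:33052765-33052864, minus strand, holds its match at -53 to -44.
Psmb8: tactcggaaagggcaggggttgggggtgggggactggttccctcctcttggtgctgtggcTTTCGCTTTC
Psmb10: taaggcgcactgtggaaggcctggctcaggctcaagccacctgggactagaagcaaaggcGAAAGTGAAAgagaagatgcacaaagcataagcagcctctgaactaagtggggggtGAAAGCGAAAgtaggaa
Psme2: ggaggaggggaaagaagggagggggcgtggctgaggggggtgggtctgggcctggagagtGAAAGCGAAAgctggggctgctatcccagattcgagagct

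The motif was in 7 of 43 proteasome promoters (16.3%) and in 3.92% of all windows. Besides the 3 printed, these were Psma4, Psmb3, Psmd7 and Psmg4. Of the immunoproteasome genes, 2 of 3 held it, and the window of Psmb9 did not contain these letters.

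Other motifs were counted in the same windows. The GC box, GGGCGG, was in 31 of 43 proteasome promoters (72.1%) and in 33.1% of all windows. The ETS core, CCGGAAG, was in 15 (34.9%) against 8.75%, and CCAAT was in 21 (48.8%) against 37.5%. TATAAA was in 4 (9.3%) against 14.2%. The gamma-activated site, TTCNNNGAA, was in 4 (9.3%) against 8.87%, and the E box, CACGTG, was in 5 (11.6%) against 6.42%. The heat shock element, spelled GAA, any 2 bases, TTC, any 2 bases, then GAA, was in 0 of 43 and in 0.798% of all windows. These counts describe promoter letters and were not tested.

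The cap base holds a ring of ATPases that unfold the substrate. Psmc1 stood at 3.03, 2.45, 2.79 and 3.03 (2.83 ± 0.27, SD, n = 4), and Psmc2 at 2.66, 2.00, 2.67 and 2.82 (2.54 ± 0.36). Psmc4 stood at 0.84, 0.16, 0.96 and 0.88 (0.71 ± 0.37), and Psmc5 at 3.58, 2.96, 3.55 and 3.56 (3.41 ± 0.30). In these 4 genes replicate 2 was lowest and the other 3 arrays lay near each other. The second probe of Psmc1 was also detected on every array, and its differences between replicates 1 and 2 and between replicates 1 and 4 were 0.45 and -0.19, against 0.58 and 0.00 for the probe used.

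The ATPase Psmc6 differed from those ATPases in the order of its arrays. Its signal was 156, 969, 147 and 137 units and its level -3.43, -0.79, -2.46 and -2.61 (-2.32 ± 1.11). Replicate 2 was the highest array, and replicate 1 minus replicate 2 was -2.64. Over named genes with a mean level below -2 on replicates 1 and 4, that difference had a median of -1.88 and a 10th percentile of -3.9. Psmc6 was under the spike-in limit on replicates 2 and 3. Without replicates 2 and 3, the SD over replicates 1 and 4 was 0.58.

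Psmc3, the remaining ATPase, had a single spot that was marked as non-uniform on replicate 2, so it has no value there and is not among the 44. Its unmarked signals were 2120, 368 and 130 units on replicates 1, 3 and 4, all well above background, and the marked spot read 4590. With the marked spot kept, its levels were 0.34, 1.45, -1.15 and -2.69 (SD 1.80). Neither the spot on replicate 1 nor that on replicate 4 was marked, and between them the gene differed by 3.03 log2 units, or 8.15-fold after scaling. Over the 43 detected proteasome genes with a value this difference ran from -0.81 to 0.76. Over all named genes its lowest and highest values were -1.89 and 3.71. Limma's F test of extra spread, run with marked spots kept, gave Psmc3 an unadjusted p of 0.00388 and an adjusted p of 0.946 over 6926 genes. The gene has 1 spot and no second probe, so no other reading of it was available here.

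The other base subunits are scaffolds and receptors. Psmd1, a scaffold, stood at 3.20, 2.14, 2.54 and 2.99 (2.72 ± 0.47). Psmd2, on which shuttle proteins dock, stood at 2.76, 1.96, 2.93 and 2.71 (2.59 ± 0.43), and Psmd4, a ubiquitin receptor, at 1.81, 1.14, 1.57 and 1.75 (1.57 ± 0.30). All 3 were lowest on replicate 2, and Psmd1 stood highest of the 43 genes in replicate 1 minus replicate 2, at 1.06 log2 units. Between replicates 1 and 4 they differed by 0.22, 0.05 and 0.05.

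The lid surrounds the deubiquitinase Psmd14, which removes ubiquitin from the substrate. Psmd14 read 1140, 810, 437 and 550 units, or levels of -0.55, -1.05, -0.89 and -0.61 (-0.78 ± 0.23), and it was under the spike-in limit on replicate 2 alone. Its 7 partners had SDs from 0.13 for Psmd7, the structural partner of Psmd14, to 0.49 for Psmd12. Psmd12 stood at 1.58, 1.14, 0.42 and 0.82, and it was the only proteasome gene of the 43 that differed between replicates 1 and 4 by more than 0.5 log2 units upwards (0.76). It was lowest on replicate 3. Psmd3 was the 1 lid gene with a higher value on replicate 2 than on replicate 1, the difference being -0.06. Replicate 2 was lowest in 13 of 16 cap genes and highest in 2.

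**Figure D2:**
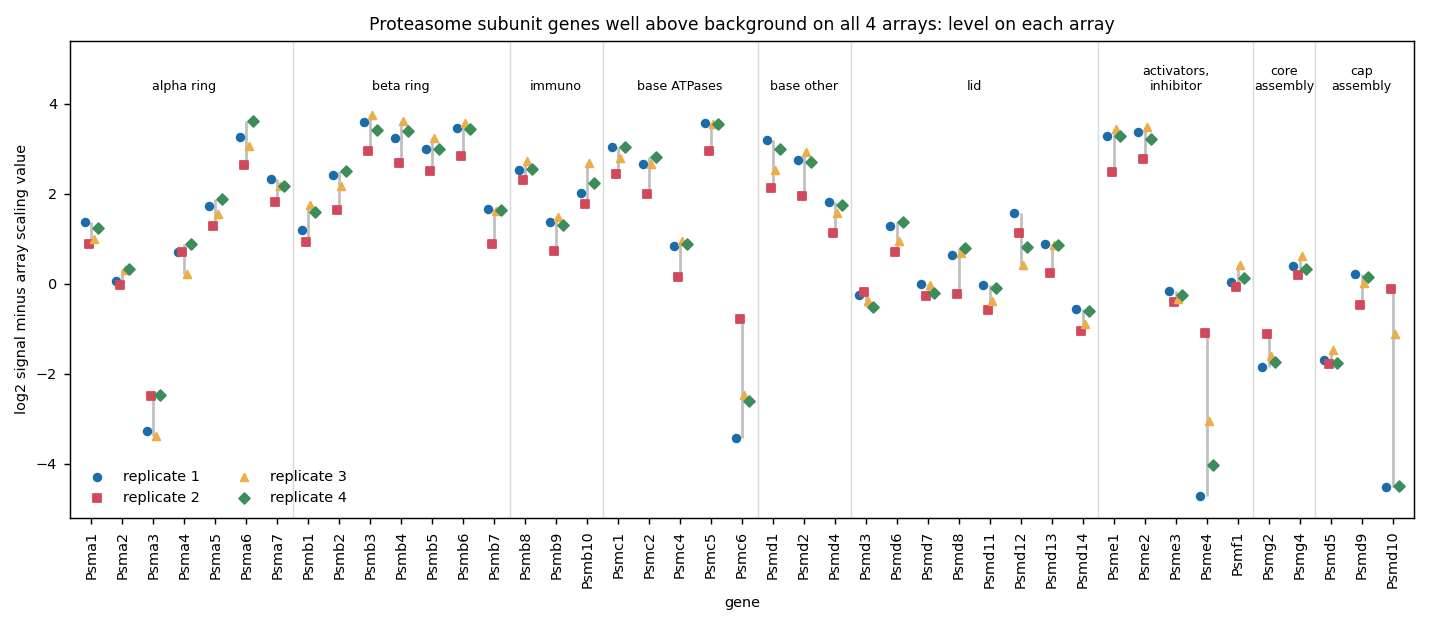
Level of the 43 proteasome genes well above background on all 4 arrays, as log2 signal minus the array's scaling value, with 1 symbol per replicate, symbols shifted sideways to show overlaps, and a grey bar from the lowest to the highest array. Replicate 2 (red squares) is the lowest symbol in 35 genes, while Psmc6, Psme4 and Psmd10 have it highest by a wide margin.

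Activators may take the place of the cap. Psme1 and Psme2, the interferon-induced partners of 1 activator ring, were each printed in 10 spots. Psme1 stood at 3.29, 2.48, 3.45 and 3.28 (3.12 ± 0.44, SD, n = 4) and Psme2 at 3.38, 2.78, 3.48 and 3.22 (3.21 ± 0.31). SDs among spots of an array were 0.07 to 0.18 for Psme1 and 0.07 to 0.24 for Psme2, under the SDs between arrays. Repeat spots carry only the technical error within an array. Both genes were lowest on replicate 2, by 0.81 and 0.60 log2 units from replicate 1. Psme3, a nuclear activator, stood at -0.15, -0.40, -0.33 and -0.24 (-0.28 ± 0.11), the smallest SD of the 43 genes. Psmf1, a proteasome inhibitor, stood at 0.05, -0.07, 0.43 and 0.14 (0.14 ± 0.22).

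Psme4, a large nuclear activator known from the testis and from DNA repair, read 63.4, 780, 98.4 and 51.9 units. Its levels were -4.72, -1.10, -3.04 and -4.02 (-3.22 ± 1.57), highest on replicate 2 and next on replicate 3. It was under the spike-in limit on both of these arrays and over it on replicates 1 and 4. Between replicates 1 and 4 it differed by -0.71, and the SD of that pair was 0.50.

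Assembly factors join the particle for a time and leave it. Of the core chaperones, Psmg2 stood at -1.85, -1.11, -1.61 and -1.74 (-1.58 ± 0.33), highest on replicate 2. Psmg4 stood at 0.39, 0.19, 0.62 and 0.33 (0.38 ± 0.18). The second probe of Psmg4, designed to a predicted transcript, read 3.97, 223, 18.9 and 4.09 units and was well above background on replicate 2 only. It was the only probe of a proteasome gene that disagreed with another of the same gene on detection.

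The cap chaperones ranged from steady to widely spread. Psmd5 stood at -1.69, -1.78, -1.47 and -1.75 (-1.67 ± 0.14), and Psmd9 at 0.22, -0.48, 0.03 and 0.16 (-0.02 ± 0.32). Psmd10, or gankyrin, a base chaperone that also binds the retinoblastoma protein, read 72.8, 1550, 377 and 37.5 units. Its levels were -4.52, -0.12, -1.11 and -4.48 (-2.56 ± 2.28), with replicates 1 and 4 together at the bottom and replicates 2 and 3 at the top. The ranges of both pairs of arrays were separate. Over replicates 1 and 4 alone its SD was 0.03, and with levels scaled by the percentile over all probes its SD over 4 arrays was 0.63.

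Spread between arrays was described over the 43 genes, beside 6904 named genes that passed the detection flag on every array with the probe used for the level. For proteasome genes the SD had a median of 0.32 log2 units, and for all named genes a median of 0.43. An SD under 0.5 was found in 40 of 43 proteasome genes (93.0%) and in 58.2% of named genes, and an SD over 1 in 3 (Psmd10, Psme4 and Psmc6; 6.98%) and in 21.6%. This comparison turned over with the percentile over all probes, where 0.0% of proteasome genes and 11.3% of named genes had an SD under 0.5 and the medians were 1.87 and 1.55. Under that scaling the 3 wide genes had SDs of 0.63, 0.58 and 0.93, while Psmb5 and Psmb8, at 0.31 and 0.17 before, had 1.82 and 1.72. On replicates 1 and 4 alone an SD under 0.5 was found in 93.0% of proteasome genes and 94.7% of named genes, with medians of 0.07 and 0.14. Without replicate 2 the medians were 0.15 and 0.32. With spike-in scaling an SD under 0.5 was found in 44.2% of proteasome genes and 19.9% of named genes. With quantile normalization the shares were 74.4 and 35.2%, and with normexp 90.7 and 63.7%. Psmd10, Psme4 and Psmc6 kept an SD over 1 with spike-in scaling and quantile normalization, and Psmd10 and Psme4 with normexp. The lower spread of the set thus held under these scalings, but not with the percentile over all probes. On replicates 1 and 4 alone the shares were near equal. Median SDs were 0.34 for the core, 0.34 for the immunoproteasome, 0.31 for the cap, 0.32 for assembly factors and 0.31 for activators and inhibitor. Classes within these groups differed more, with 0.26 for the alpha ring and 0.37 for the beta ring. In the cap the medians were 0.36 for the ATPases, 0.43 for the other base subunits and 0.28 for the lid, and among assembly factors they were 0.26 for core and 0.32 for cap chaperones. None of these differences was tested.

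Spread was widest among the dimmest genes and did not fall steadily with brightness. Above a mean level of 0 on replicates 1 and 4 the median SD was 0.32 over 32 proteasome genes and 0.34 over 1806 named genes. From -2 to 0 it was 0.15 over 7 and 0.31 over 2057 genes. Below -2 it was 1.34 over 4 genes, Psma3, Psmc6, Psmd10 and Psme4, and 0.97 over 3041. Among bright genes the proteasome set was thus close to other genes of like signal.

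**Figure D3:**
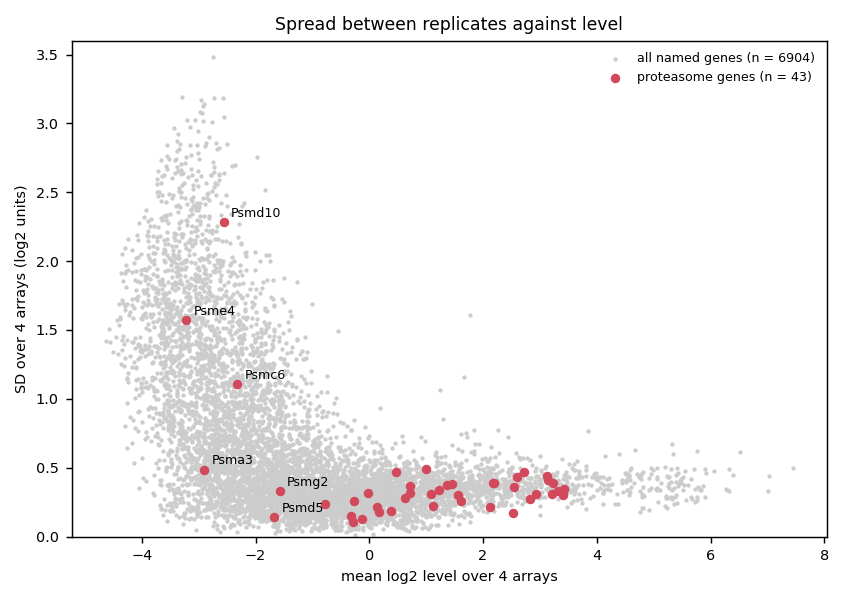
SD over the 4 arrays in log2 units against the mean log2 level, with all 6904 named genes in grey and the 43 proteasome genes in red. Most proteasome genes lie with the bright genes under an SD of 0.5, and Psmd10, Psme4 and Psmc6, at SDs of 2.28, 1.57 and 1.11, lie among the widely spread dim genes.

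Between replicates 1 and 4, the arrays on which dim probes were not raised, proteasome genes were near equal. The median difference was 0.00 log2 units over the 43 genes and -0.03 over all named genes, and the median size of the difference was 0.10 against 0.20. Of the 43, 22 were higher on replicate 1. With spike-in scaling the medians became 0.62 and 0.59, so the sign and size of the shift common to all genes depend on the scaling.

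Differences from replicate 2 were larger and changed with brightness. Replicate 1 minus replicate 2 had a median of 0.51 over the proteasome genes and -0.26 over all named genes. Above a mean level of 0 on replicates 1 and 4 the medians were 0.61 over 32 proteasome genes and 0.57 over 1806 named genes. From -2 to 0 they were 0.25 and -0.02, and below -2 they were -3.13 and -1.88. Replicate 1 enters both this grouping and the difference, and how far the change with brightness comes from the grouping was not tested. Psmd10, at -4.41, lay under the 10th percentile of the dimmest named genes, which was -3.90. Replicate 2 minus replicate 3 had a median of -0.43 over the proteasome genes and 0.08 over all named genes.

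Replicate 2 was the lowest of the 4 arrays in 35 of 43 proteasome genes (81.4%) and in 33.2% of named genes, and the highest in 5 (11.6%) and 44.8%. Both the direction and the count turned with the scaling. With quantile normalization replicate 2 was lowest in 12 of 43 (27.9%) and in 51.0% of named genes. The proteasome medians of replicate 1 minus 2 and 2 minus 3 then became -0.21 and 0.19, and those of named genes 0.87 and -0.18. With spike-in scaling it was lowest in 0 of 43 and in 0.0435% of named genes, with proteasome medians of -0.05 and 1.03 and medians over named genes of -0.82 and 1.55. The low values on replicate 2 are thus relative to the other probes of that array.

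**Figure D4:**
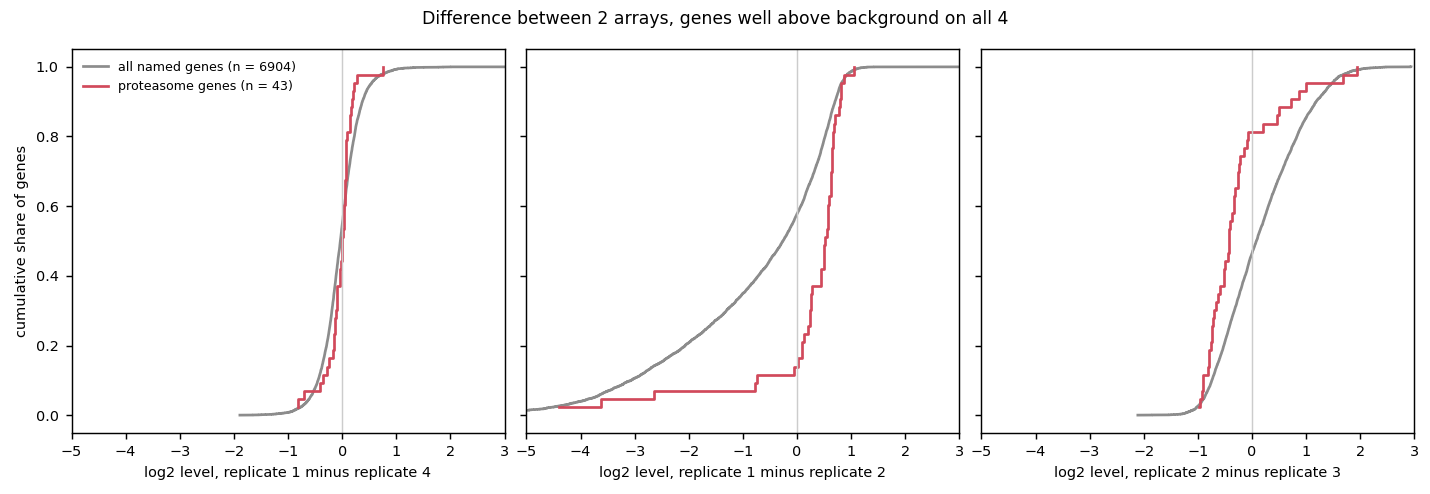
Cumulative share of genes against the difference in log2 level between a pair of arrays, for 43 proteasome genes (red) and 6904 named genes (grey), with the axis ending at -5 and 3. For replicate 1 minus replicate 4 both curves cross near 0, for replicate 1 minus replicate 2 the red curve lies to the right with a median of 0.51 against -0.26, and for replicate 2 minus replicate 3 it lies to the left with -0.43 against 0.08.

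A test across genes that 1 group allows is whether a gene varies more than others of its level. Limma's F test against a trended prior variance called 0 of 43 proteasome genes at an adjusted p of 0.05 and 0.0% of 6904 named genes. At an unadjusted p under 0.05 it held 1 proteasome gene and 311 named genes (4.5%). That gene was Psmd10, with an unadjusted p of 0.022 and an adjusted p of 0.942. A robust prior also called 0, with 1 proteasome gene and 270 named genes (3.91%) under the unadjusted threshold. A count of 0 does not show that no gene varied, because the test did not find genes given extra spread in simulated data with noise as fitted here.

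Genes that work with the proteasome were measured for 23 of 30 listed, and 22 of these were well above background on all 4 arrays. Pomp, the chaperone that closes the core, stood at 3.83, 3.26, 3.76 and 3.76, and Sem1, a small lid subunit, at 2.70, 2.07, 2.26 and 2.99. Both were lowest on replicate 2, as most subunits were. Adrm1, a ubiquitin receptor of the base, read 106, 1200, 243 and 51.0 units, high on replicates 2 and 3 like Psmd10. Ddi2, the protease that activates Nfe2l1, read 16.0, 883, 195 and 9.8 units and was not well above background on replicates 1 and 4. Nfe2l1, the factor that drives proteasome genes when the particle is blocked, was not paired with a probe.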

How the data were processed

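Total RNA of 4 cultures in 1 group was hybridised to 1-colour (Cy3) rat expression arrays on 1 slide. The intensity values and spot flags that the authors deposited came, per the file headers, from Agilent Feature Extraction 11.0.1.1, which subtracted background and corrected trends within each array; no normalization between arrays is recorded, and the array design names build rn4. The deposited value table equals the median spot intensity on all 62976 spots and was not used further. Array number, not read depth, limits precision, and no gene spot was saturated.

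Analysis used the processed intensity of gene spots. Spots that the software marked as uneven or as outliers among repeats were dropped, the spots of each probe were averaged as log2, and the 75th percentile was subtracted over the 12899 probes well above background on all 4 arrays. A percentile over all probes was an alternative, because under 50% of spots on replicates 1 and 4 were above background. Probes were named by accession through the RefSeq table of GRCr8 (21109 of 45598). The brightest probe gives the level of its gene, and a probe counts as detected when over 50% of its spots were. SDs cover 4 arrays. Since p-values compare replicates of 1 group, they measure only spread between arrays. Each array held 1 culture, so spread between cultures and technical spread between arrays cannot be told apart. Extra spread was tested with limma 3.58.1 in R 4.3.3, by an F test against a trended prior with Benjamini-Hochberg adjustment at 0.05. The procedure was tested on simulated data. With noise as fitted here it did not find the genes given extra spread, and with equal noise it found only part of them.

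Values on every array are given for the cutting and immunoproteasome subunits, the ATPases, the base receptors and scaffolds, Psmd14, activators, inhibitor, assembly factors, Psma8 and 5 named partners, and other members by range. Values of 1 further partner are not reported here. The genes, lists and tests were chosen with earlier results of these data known. Alternatives were other detection flags and limits, scalings, normexp with an offset of 50, the mean of a gene's probes, marked spots kept, a robust prior, no filter on dim probes, and leaving out arrays. Extra spread on replicates 1 and 4 or 2 and 3 alone, detection on single arrays, and the rank of replicate 2, its gap to other arrays and the shares of SDs under each scaling were added after seeing the data. Promoter windows span 250 bases before to 50 after a gene's start and were available for 43 of 48 proteasome genes.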

Additional observations from a re-analysis of the deposited data

Results flagged for a closer look

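In 6 proteasome genes replicate 2 lay so far under the other 3 arrays that its gap to the nearest of them, divided by the range of the 4, passed the critical value of Dixon's test for 4 samples. The shares were 0.936 for Psmb7, a cutting subunit of the core, 0.860 for Psmc4 and 0.944 for Psmc5, ATPases of the base, 0.861 for Psmd8 and 0.948 for Psmd13, subunits of the lid, and 0.833 for Psme1, an activator subunit. In all 6 it was replicate 2 and the lowest array. Chance gives about 5% of groups such a value, and 52 groups were examined, 44 genes and 8 medians of subunit classes. The share of all named genes past this value was not counted. Named genes with a mean level above 0 on replicates 1 and 4 were also lower on replicate 2, by a median of 0.57 from replicate 1. Whether the 6 genes differ in this from other bright genes was not tested. Since the 6 genes share the array, they are not 6 separate events. With quantile normalization Psmb7, Psmc4, Psmc5, Psmd13 and Psme1 gave 0.739, 0.700, 0.676, 0.651 and 0.394, under the critical value, and Psmd8 gave 0.929. With spike-in scaling the 6 gave 0.260 to 0.447. Over the 43 detected genes, the number past the critical value was 0 with the percentile over all probes, 1 with spike-in scaling (Psmc6), 4 with quantile normalization (Psmd8, Psmc2, Psmd9 and Psme4) and 9 with normexp. Replicate 2 was the lowest array in 2 of the 4 and in 8 of the 9.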

How the results depend on the processing

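Detection of 43 genes held under the positive-and-significant flag, at least 3 arrays, the brightest probe, either pair of arrays and every array left out. It was 42 of 44 when every probe had to be detected, 44 of 45 with marked spots kept, and 37 with the spike-in limit. Of the core chaperones, 2 were detected, but 1 when every probe was required and 1 with the spike-in limit. The median level of 1.12 became 3.95 with the percentile over all probes and -1.91 with spike-in scaling, which moved all named genes by 2.83 and -3.04, and was 1.04 to 1.21 without each array. The median SD of 0.32 became 1.87 and 0.51 under these scalings, 0.07 on replicates 1 and 4 alone, and 0.15 to 0.37 without each array, with 0.15 without replicate 2. Replicate 1 minus 4 moved from 0.00 to 0.62 with spike-in scaling. Replicate 2 minus 3 moved from -0.43 to -1.34, 1.03 and 0.19, and replicate 1 minus 2 from 0.51 to 3.77, -0.05 and -0.21, with the percentile over all probes, spike-in scaling and quantile normalization. The cause of these shifts was not tested. Extra spread gave 0 calls among proteasome genes in all 15 fits, with 0 to 3 under an unadjusted p of 0.05; on replicates 1 and 4 alone 6 of 7544 named genes were called. No paired analysis was possible because the arrays form 1 group. Levels of dim genes on replicates 2 and 3 are limited by the raised signal of dim probes there, and 33 of 43 genes rest on 1 spot per array.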
